A study of Mus musculus with 5 samples.

Results

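7SK, 7SL, RNase P RNA and RNase MRP RNA are abundant structured RNAs made by RNA polymerase III. They were followed here through the 5 gene models Rn7sk, Rn7s1, Rn7s2, Rpph1 and Rmrp, taken by name from the 53927 genes of the deposited table. Total RNA came from primary nephron progenitor cells, the precursors from which nephrons form, taken from C57BL/6J mouse embryos that were either Dis3l2+/+ (WT, 2 libraries) or Dis3l2-/- (KO, 3 libraries). The cells had been grown under culture conditions meant to keep progenitors self-renewing and had been passaged 1 time. Which part of Dis3l2 was removed, the age of the embryos, and whether the libraries stand for separate embryos were not given in the sources used here. P-values therefore set a difference only against the scatter of these libraries, and some of that scatter may be technical.

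Each of these RNAs is the scaffold of a ribonucleoprotein. 7SK holds the elongation kinase P-TEFb inactive in the nucleus with the proteins Hexim1, Larp7 and Mepce. 7SL is the RNA of the signal recognition particle, which takes ribosomes that make secreted and membrane proteins to the endoplasmic reticulum. The RNA of RNase P, Rpph1, cuts the leader from precursor tRNAs, and that of RNase MRP, Rmrp, takes part in ribosomal RNA processing. RNA polymerase III ends its transcripts in a short run of U, which is bound by the La protein. Terminal uridylyltransferases can extend that end, and Dis3l2 is a 3′-to-5′ exoribonuclease that degrades RNAs with such U tails, structured RNAs of RNA polymerase III among them. This makes the level of these RNAs without Dis3l2 a question of interest. Reads were 50 bases long and were counted per gene, so the tails themselves and the intactness of the RNA were not analysed here.

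All 5 gene models have 1 exon and are 271 to 331 bases long, with 58.0% to 67.1% G and C. On GRCm38 (GENCODE M21), Rn7sk (ENSMUSG00000065037.1) lies on chromosome 9 from 78175303 to 78175633 on the minus strand. Rn7s1 (ENSMUSG00000099021.1) lies on chromosome 12 from 69159295 to 69159594 on the plus strand, and Rn7s2 (ENSMUSG00000099250.1) on the same chromosome from 69361182 to 69361481 on the minus strand. Rpph1 (ENSMUSG00000092837.1) lies on chromosome 14 from 50807449 to 50807767 and Rmrp (ENSMUSG00000088088.1) on chromosome 4 from 43492788 to 43493058, both on the minus strand. A U tail would be added at the 3′ end of the RNA. The 3′ ends of 3 of the models are shown as the last 60 bases of the GENCODE M21 transcript, with the last 12 bases in capitals.
Rn7sk: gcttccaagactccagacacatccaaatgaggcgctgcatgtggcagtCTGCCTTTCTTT
Rpph1: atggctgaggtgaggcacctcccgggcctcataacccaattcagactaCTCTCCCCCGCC
Rmrp: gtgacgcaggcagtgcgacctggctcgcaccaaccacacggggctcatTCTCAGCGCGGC
The Rn7sk model holds 7 T in its last 12 bases and ends in a run of 3. The Rpph1 and Rmrp models each hold 2 T in the last 12 and do not end in T. The end of a model need not be that of the RNA. An overlapping model on the strand of Rmrp, AL732506.1, runs on to 43492783, past the end of the Rmrp model at 43492788.

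How far the reads of an RNA can be told from those of another gene is set by its sequence. The 7SL models Rn7s1 and Rn7s2 are identical over all 300 bases, which bears on every 7SL value. Each of the 251 windows of 50 bases, the read length, in either model is thus found in the other. Of the 282 windows of Rn7sk, 192 (68.1%) were also found in 1 or more of 7 other gene models, and the 90 unshared windows all lay at the 3′ end. The longest shared stretch is with Gm24447, whose first 241 bases are those of Rn7sk. Bases 182 to 301 of both models show where they part, with the bases after the identical run in capitals.
Rn7sk: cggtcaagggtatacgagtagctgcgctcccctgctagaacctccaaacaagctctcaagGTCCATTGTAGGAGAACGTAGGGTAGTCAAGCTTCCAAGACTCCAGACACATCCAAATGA
Gm24447: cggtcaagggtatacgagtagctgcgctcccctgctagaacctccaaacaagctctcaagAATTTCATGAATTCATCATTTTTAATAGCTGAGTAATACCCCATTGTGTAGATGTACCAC

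Rpph1 and Rmrp share sequence with gene models that overlap them in the genome on the same strand. The protein-coding model Ccnb1ip1 covers Rpph1 from base 36 on, with 233 bases in its exons, and 184 of the 270 Rpph1 windows (68.1%) are also in its transcripts. The first 100 bases of Rpph1 are shown, with those inside the Ccnb1ip1 model in capitals.
Rpph1: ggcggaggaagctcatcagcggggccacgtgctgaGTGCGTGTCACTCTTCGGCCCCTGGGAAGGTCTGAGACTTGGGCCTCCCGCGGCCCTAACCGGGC
Ccnb1ip1 was at 0 in all 5 libraries. Rmrp lies whole within a second model of the same RNA, ENSMUSG00000115420.1 (AL732506.1 in the deposited table), so that all 222 of its windows are shared. The transcripts of Ccdc107, on the opposite strand, overlap 124 of its bases. How the authors' counting treated reads with several matches or under overlapping models could not be read from the labels. The values of all 5 models carry that uncertainty.

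**Figure D1:**
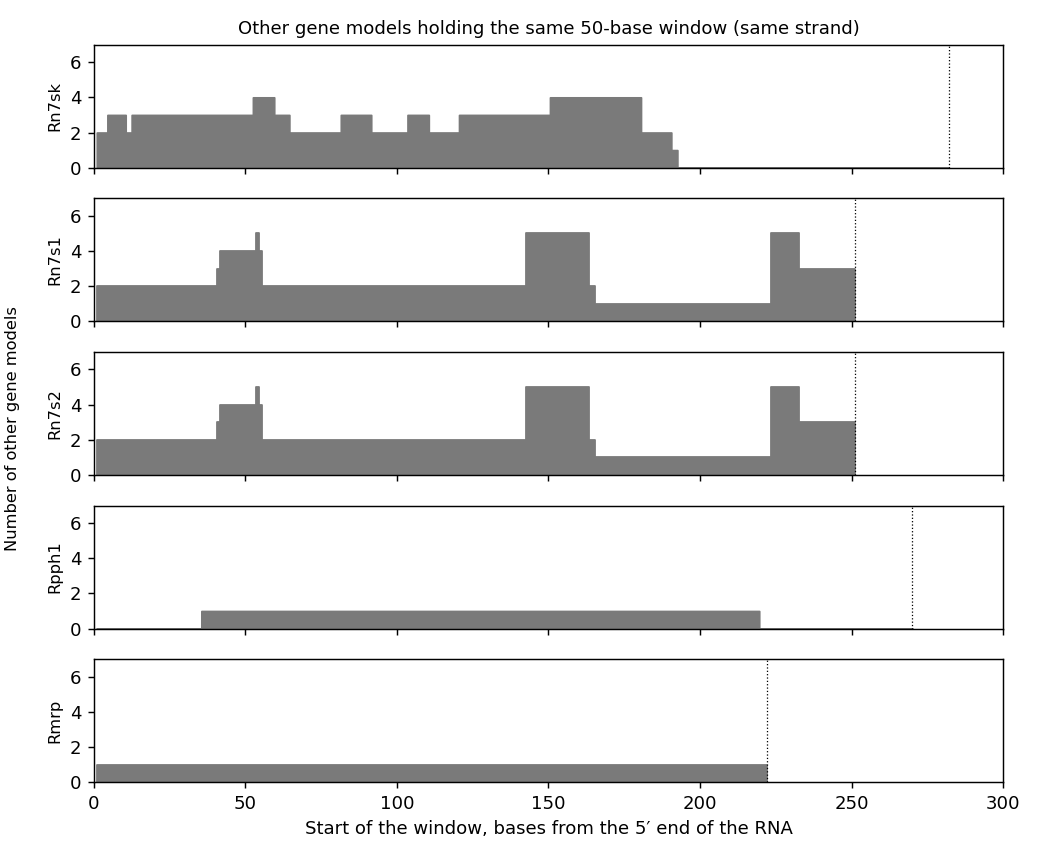
Number of other gene models (y axis) that hold the same 50-base window on the same strand, by the window's start in bases from the 5′ end of each RNA (x axis); the dotted line marks the last window. Every window of Rn7s1, Rn7s2 and Rmrp is shared, while Rn7sk has 90 unshared windows at its 3′ end and Rpph1 has 86 at its ends.

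The libraries held 19.61 to 49.25 M assigned reads, by the step size of their low values, and every level below is the deposited CPM, scaled to an effective library size. Dis3l2 itself was at 16.04 and 12.18 CPM in WT versus 4.70 to 6.50 CPM in KO, so each KO library lay below both WT libraries (log2 fold change -1.24, standard error 0.21). Of 10 nephron progenitor markers 9 averaged at least 1 CPM, with Six2 at 18.58 to 31.86 CPM and Cited1 at 1.40 to 17.05. Pax2, also a defining marker, was at 0.05 to 0.66 CPM. Summed progenitor markers came to 730 to 923 CPM. For renal stroma the sum was 511 to 1040 CPM, above that of progenitors in WT replicate 2 and KO replicate 2. Its defining gene Foxd1 was at 0.13 to 0.25 CPM. Other stromal markers were higher, with Col1a1 at 227.08 to 656.04, Aldh1a2 at 127.86 to 323.35 and Pdgfrb at 45.99 to 141.37 CPM. Summed markers came to at most 7.65 CPM for leukocytes. For endothelium they came to 40.0 to 72.9 CPM, mostly from Emcn (23.53 to 64.59) and Kdr (5.27 to 35.61). The endothelial genes Pecam1 and Cdh5 were at 0.06 to 0.70 and 0.00 to 0.78 CPM. Xist and the Y-linked Ddx3y divided the libraries into female (WT replicate 2, KO replicates 1 and 2) and male (WT replicate 1, KO replicate 3). Mitochondrial ribosomal RNA took 38.9% and 40.7% of the column sum in WT versus 31.5% to 32.9% in KO.

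Rn7sk held by far the most assigned reads of the 5 models and varied most among the KO libraries in absolute level. Every window of Rn7s1, Rn7s2 and Rmrp is shared with another model, so this order need not be that of the RNAs in the cell. Rn7sk was at 39645.69 and 34791.71 CPM in WT replicates 1 and 2, and at 124597.41, 65108.21 and 20913.88 CPM in KO replicates 1, 2 and 3. KO replicates 1 and 2 thus stood 3.35 and 1.75 times as high as the WT mean, and KO replicate 3 lay below both WT libraries at 0.562 of it. In shares of the column sum, which do not depend on the authors' normalization factors, 7SK took 3.83% and 3.51% in WT against 11.9%, 6.48% and 2.27% in KO. Since 7SK is part of the sum, a change in its level also moves the share of every other RNA. Without mitochondrial genes in the sum its shares were 6.59% and 5.87% in WT versus 17.7%, 9.82% and 3.45% in KO. The means were 37220 ± 3432 CPM (SD, n = 2) and 70210 ± 52030 CPM (SD, n = 3). The log2 fold change (KO over WT) came to 0.58, standard error 0.95, so the difference was smaller than the spread between KO libraries (adjusted p = 1, limma). Without KO replicate 1 it was -0.01, and without KO replicate 3 it was 1.28 (standard error 1.33; adjusted p = 0.803, limma).

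Gene models that share windows with 7SK mostly had the same libraries high and low. Gm24447, with the 241 bases shown above, was at 802.6 and 666.02 CPM in WT versus 1635.14, 1036.25 and 407.61 CPM in KO. Relative to Rn7sk in the same library this was 2.02% and 1.91% in WT versus 1.31%, 1.59% and 1.95% in KO. In 6 of the 7 models KO replicates 1 and 2 lay above both WT libraries, and in 5 of them KO replicate 3 also lay below both. Together they summed to 820.31 and 679.89 CPM in WT versus 1676.45, 1058.75 and 414.99 CPM in KO. As they share windows with Rn7sk they are no independent measure of it. C920006O11Rik, a long noncoding gene on the opposite strand whose start lies 281 bases from that of Rn7sk, showed no such order, with 2.87 to 3.81 CPM in the 5 libraries.

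7SL was counted almost wholly on 1 of its 2 identical models. Rn7s1 held 0 reads in 4 libraries and 1 read (0.04 CPM) in WT replicate 2. Rn7s2 was at 73.68 and 104.68 CPM in WT versus 166.56, 169.23 and 77.97 CPM in KO. KO replicates 1 and 2 were above both WT libraries, and KO replicate 3 lay between them. The means were 89.18 ± 21.92 CPM (SD, n = 2) and 137.9 ± 51.94 CPM (SD, n = 3), and the log2 fold change came to 0.56, standard error 0.36 (adjusted p = 1, limma). Without KO replicate 3 it was 0.93 (standard error 0.19; adjusted p = 0.252, limma). Adding up both models left the log2 fold change at 0.56. A read that lies wholly within identical sequence cannot be assigned to a locus. Why nearly all counted reads fell on Rn7s2 was not tested. Its count was therefore not read as showing which copy was transcribed, nor as the level of all 7SL. Rps29, a ribosomal protein gene on the opposite strand whose start lies 109 bases from that of Rn7s1, had 250.17 and 220.50 CPM in WT versus 576.86, 248.94 and 129.46 CPM in KO, so KO replicate 2 was not raised in it as it was in Rn7s2.

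The RNA of RNase P had the widest range relative to its WT mean of the 3 members with more than single reads, while in CPM the range of 7SK was wider. Rpph1 was at 48.18 and 28.96 CPM in WT versus 289.64, 340.88 and 25.35 CPM in KO. KO replicates 1 and 2 stood 7.51 and 8.84 times as high as the WT mean, whereas KO replicate 3 was at 0.657 of it. The latter rested on 539 reads, and its 95% exact Poisson interval (23.25 to 27.58 CPM) overlapped that of WT replicate 2 (27.02 to 31.01 CPM). An overlap of intervals does not show that those libraries were alike. Such intervals cover counting error only. The means were 38.57 ± 13.59 CPM (SD, n = 2) and 218.6 ± 169.3 CPM (SD, n = 3), which gave 1.84 as log2 fold change (standard error 1.05) and an adjusted p of 1 in limma. Without KO replicate 3 it was 3.04 (standard error 0.26; adjusted p = 0.0664, limma), and 8 genes, 0.0543% of those tested, then passed, Rpph1 not among them. Parp2, a DNA repair gene on the opposite strand whose start lies 74 bases from that of Rpph1, was at 27.17 and 21.24 CPM in WT versus 24.76, 22.55 and 24.27 CPM in KO. The ratio of Rpph1 to Parp2 was therefore 1.77 and 1.36 in WT versus 11.7, 15.1 and 1.04 in KO.

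The RNA of RNase MRP was listed at 0 in all 5 libraries, under Rmrp as under the overlapping model AL732506.1. In these libraries 3 reads correspond to 0.0639 to 0.141 CPM, the one-sided upper limit that a count of 0 allows for reads assigned to the model, unlike the two-sided interval given for Rpph1. Rprl1, a gene of the RNase P RNA family with 2 models in the table, was likewise at 0 under both. Rprl2 and Rprl3 of the same family, with 1 model each, were at 0.00 to 0.13 and 0.05 to 0.22 CPM. No level of RNase MRP RNA can be read from these values, and no comparison of genotypes was made for it. The part that overlapping models had in the zeros was not tested.

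**Figure D2:**
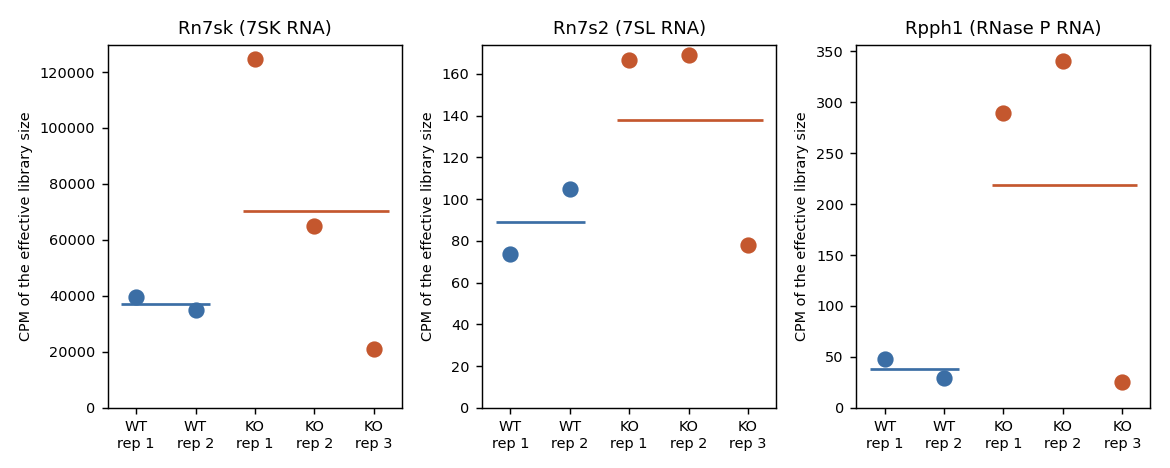
Level of Rn7sk, Rn7s2 and Rpph1 (y axis, CPM of the effective library size, from 0) in each library (x axis), with WT in blue, KO in orange and a line at each genotype's mean. In all 3 panels KO replicates 1 and 2 lie above both WT libraries and KO replicate 3 does not; Rn7s1 and Rmrp, at or near 0, are not drawn.

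In the 3 members with more than single reads, KO replicates 1 and 2 were the highest libraries, while KO replicate 3 was the lowest for Rn7sk and Rpph1 but not for Rn7s2. The filter on low values (at least 0.5 CPM in at least 2 libraries) kept 3 members and left out Rn7s1 and Rmrp. Of these 3, limma called 0 at an adjusted p under 0.05, and 0 had an unadjusted p under 0.05. Over all 14884 genes tested, 1 gene passed, higher in KO, which is 0.00672%, while 413 had an unadjusted p under 0.05. No member had every KO library above both WT libraries, against 7.85% of genes tested, and none had every KO library below both, against 6.98%. Both Rn7sk and Rpph1 had KO replicates 1 and 2 above both WT libraries and KO replicate 3 below both. That pattern, looked for after the values had been seen, was shared by 1514 genes, or 10.2% of those tested. The authors' deposited table gives log2 fold changes of 0.92 for Rn7sk, 0.63 for Rn7s2 and 2.50 for Rpph1, with an FDR of 1 for each and a p-value of 0.0262 for Rpph1. An exact two-sided permutation test of the 2 WT against the 3 KO levels gave p = 0.6 for Rn7sk, 0.3 for Rn7s2 and 0.4 for Rpph1, where the smallest p this design allows is 0.1. In bulk RNA, fewer cells that hold an RNA and less of it per cell cannot be told apart.

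Per kilobase of the gene model, Rn7sk led in assigned reads in every library, with 63200 to 376000 CPM per kb. The order of the others differed between libraries. Rn7s2 was above Rpph1 in WT (246 and 349 against 151 and 90.8 CPM per kb) and in KO replicate 3 (260 against 79.5). In KO replicates 1 and 2 it was below Rpph1, with 555 and 564 against 908 and 1070 CPM per kb. The ratio of Rpph1 to Rn7s2, which no scaling can change, was 0.654 and 0.277 in WT versus 1.74, 2.01 and 0.325 in KO. Its mean log2 difference of 1.30 was smaller than the SD of 1.46 among KO libraries (exact permutation p = 0.3, two-sided). Rpph1 over Rn7sk was 0.122% and 0.0832% in WT versus 0.232%, 0.524% and 0.121% in KO, a mean log2 difference of 1.29 (exact permutation p = 0.3, two-sided). Rn7sk over Rn7s2 was 538 and 332 in WT versus 748, 385 and 268 in KO, a mean log2 difference of 0.01 (exact permutation p = 1, two-sided). These are the 3 ratios of the 10 possible pairs for which both members had reads. As none could go below 0.1, none could pass after adjustment.

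Other short RNAs also differed between the libraries, and their order depended on which were summed. Over 136 other tested gene models with a span of 200 to 400 bases, the median log2 level relative to the WT mean was 0.31, 0.12 and -0.22 in KO replicates 1, 2 and 3, against 0.02, 0.01 and 0.00 over all genes tested. All other gene models with a span under 400 bases, tested or not, took 0.605% and 0.627% of the column sum in WT versus 0.945%, 1.12% and 0.846% in KO. KO replicate 3 thus lay above both WT libraries in this sum. The sum includes the Y RNA Rny1, at 160.82 and 212.56 CPM in WT versus 1197.01, 2978.42 and 2062.71 CPM in KO. It also includes the Y RNA Rny3, at 629.45 and 949.15 CPM in WT versus 1441.86, 2018.24 and 1474.57 CPM in KO. With Rny1 and Rny3 taken off this sum, KO replicate 3 would lie below both WT libraries, and KO replicates 1 and 2 above both. Ribosomal protein genes took 1.93% and 1.63% of the column sum in WT versus 2.36%, 1.68% and 1.41% in KO, with KO replicate 2 between the WT libraries. Summed snoRNA models did not share the order of 7SK: they came to 1255 and 1096 CPM in WT versus 976, 1061 and 846 CPM in KO. The nuclear RNA Malat1 had 18049.26 and 18217.73 CPM in WT versus 15146.96, 17923.69 and 16160.90 CPM in KO. The part of transcript length in the members' values was not tested. Sex follows the same divide, since KO replicate 3 is the 1 male KO library. Within female libraries the share of the column sum was 2.62 times as high in KO as in WT for Rn7sk, 1.55 for Rn7s2 and 10.5 for Rpph1, and within male libraries, 1 against 1, it was 0.593, 1.19 and 0.591. With 1 male library per genotype, sex and the single library cannot be told apart.

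Other RNAs of RNA polymerase III did not divide the KO libraries in this way. The Y RNA Rny1 was at 160.82 and 212.56 CPM in WT versus 1197.01, 2978.42 and 2062.71 CPM in KO, so that KO replicate 3 was high in it while low in 7SK. The ratio of Rn7sk to Rny1 was 247 and 164 in WT versus 104, 21.9 and 10.1 in KO, lower in each KO library than in either WT library (exact permutation p = 0.2, two-sided). Since Rny1 itself was higher in each KO library, the fall of this ratio says nothing of 7SK by itself. Of the 8 genes of the list of other RNA polymerase III RNAs, 3 were tested, Vaultrc5, Rny1 and Rny3, and all 3 had every KO library above both WT libraries, as did 7.85% of genes tested. Of these Vaultrc5, the vault RNA, passed over all genes (adjusted p = 0.0471, limma). That call was lost, with 0 genes past the threshold, under median-of-ratios factors, a pseudocount of 5, no filter on low values or a sex term, and without WT replicate 1, WT replicate 2 or KO replicate 2. Within KO replicate 3, Vaultrc5 stood at 46.32 CPM against 1.99 and 1.51 in WT. The authors' own edgeR likelihood ratio test, unlike limma here, gave an FDR of 3.58e-25 for Vaultrc5 and of 6.24e-11 for Rny1.

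**Figure D3:**
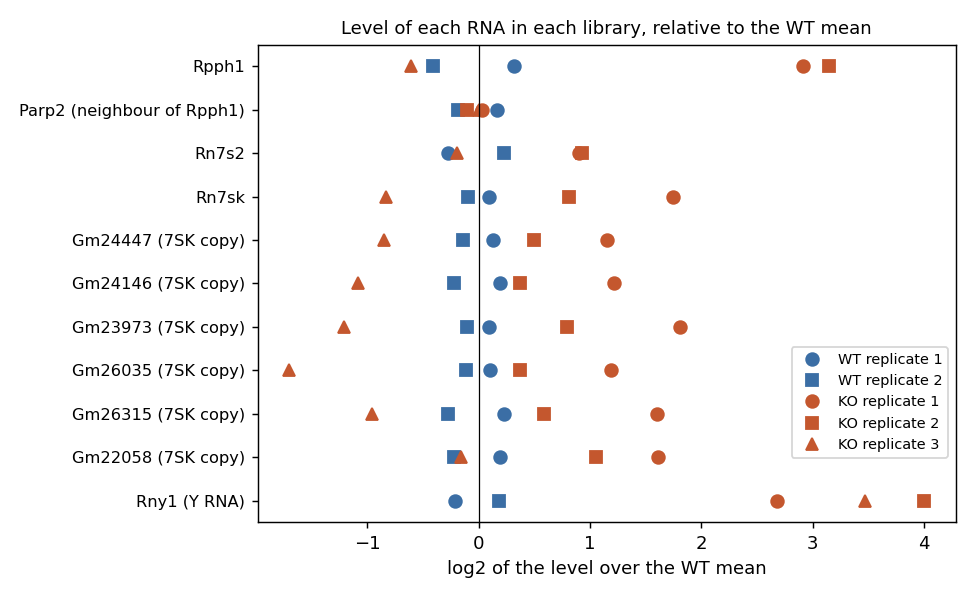
Log2 of the level in each library over the WT mean (x axis) for Rpph1 and its neighbour Parp2, Rn7s2, Rn7sk, 6 gene models that share windows with it, and the Y RNA Rny1 (y axis); blue marks are WT, orange marks KO. The triangle, KO replicate 3, lies near or below the WT libraries for every RNA drawn except Rny1, where it lies with the other KO libraries.

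Genes with the most similar profile over the 5 libraries were messages, and differed between the members. Likeness was the root mean square difference between profiles of log2(CPM + 1), each centred on its own mean, over 9861 genes with a mean of at least 5 CPM. For Rn7sk, whose own profile has a root mean square of 0.87, the nearest were Rplp1 (0.10), Hmgn2 (0.14) and Rpl36 (0.16). Rplp1, an acidic protein of the large ribosomal subunit, had 229.49 and 214.32 CPM in WT versus 756.86, 436.07 and 112.53 CPM in KO. Rpl36 is also a ribosomal protein gene and Hmgn2 encodes a nucleosome-binding protein. For Rpph1, with a root mean square of 1.61, the nearest were 3 histone genes, Hist1h2bl (0.18), Hist1h4k (0.24) and Hist1h4d (0.26). Hist1h4d, a histone H4 gene, had 64.73 and 51.61 CPM in WT versus 652.97, 507.21 and 40.07 CPM in KO. Messages of replication-dependent histone genes end in a stem-loop in place of a poly(A) tail. For Rn7s2, with 0.51, the nearest were Krtcap2 (0.06), a gene of the glycosylation machinery of the endoplasmic reticulum, Tnrc18 (0.11) and the peroxidase gene Gpx4 (0.11). Krtcap2 had 31.30 and 42.86 CPM in WT versus 68.36, 67.34 and 28.87 CPM in KO.

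The protein partners of these RNAs were compared through lists written with earlier results of the data known. None of the 13 tested proteins of the 7SK particle and P-TEFb passed with limma, 0 had an unadjusted p under 0.05, and their median log2 fold change was 0.00 against 0.01 over all genes. Among those with the smallest p were Ddx21 (-0.25), a helicase that releases P-TEFb from 7SK, and Hnrnpa2b1 (0.14). The 3 core partners, named for their role after their values had been seen, had log2 fold changes of 0.08 for Larp7, which binds the U-rich 3′ end of 7SK, 0.05 for Mepce, which caps its 5′ end, and 0.08 for Hexim1. Hexim1 had 25.55 and 23.28 CPM in WT versus 26.30, 29.38 and 22.20 CPM in KO. Larp7 had 41.04 and 40.44 CPM in WT versus 43.75, 41.95 and 43.64 CPM in KO, so the KO library lowest in 7SK was not low in Larp7.

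Of 9 tested genes for proteins of the signal recognition particle and its receptor, 0 passed with limma and 1 had an unadjusted p under 0.05. Their median log2 fold change was 0.20 against 0.01 over all genes, and 8 of the 9 were above 0, as were 7869 of the 14884 genes tested. In 4 of the 9 each KO library exceeded the higher WT library, a position held by 7.85% of genes tested. The 4 were Srpr, Srprb, Srp14 and Srp19. Srpr, which encodes the receptor subunit that meets the particle at the membrane, had 48.13 and 49.08 CPM in WT versus 68.26, 64.15 and 59.21 CPM in KO (log2 fold change 0.38, standard error 0.13). Srprb, the other receptor subunit, had a log2 fold change of 0.21. Srp14, which binds the Alu domain of 7SL, had 40.44 and 40.86 CPM in WT versus 46.56, 54.27 and 43.12 CPM in KO. For Srpr and Srp14, KO replicate 3 lay above both WT libraries, unlike for Rn7s2.

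Among 11 tested proteins of RNase P and RNase MRP, 0 passed with limma, 0 had an unadjusted p under 0.05 and the median log2 fold change was -0.02. Rpp38, with 9.09 and 7.79 CPM in WT versus 6.39, 5.86 and 7.05 in KO, was lower in each KO library than in either WT library (log2 fold change -0.34, standard error 0.17). Pop4 lay above both (0.24, standard error 0.13). Pop7 had 6.77 and 7.23 CPM in WT versus 11.49, 12.60 and 6.30 CPM in KO, the same libraries being high as for Rpph1, with 0.43 as log2 fold change, standard error 0.29. Rpp21 and Rpp25l had that order too, and the other tested proteins of the list did not. It was shared by 10.2% of all genes tested.

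Transcription and decay factors were compared last. Of 18 tested factors that act at promoters of RNA polymerase III, 0 passed with limma and 0 had an unadjusted p under 0.05, with a median log2 fold change of 0.01. The smallest p values belonged to the polymerase III repressor gene Maf1 (0.25), Snapc5 (0.19), a subunit of the complex that binds snRNA-type promoters, and Brf2 (0.22), the initiation factor of such promoters. Of 13 tested genes for La, tailing and 3′ trimming, 0 passed, and Dis3l2 was the 1 with an unadjusted p under 0.05. Beside it were the poly(A) polymerase gene Papd7 (-0.18), lower in each KO library than in either WT library, and Trove2 (-0.17), which encodes the Ro60 protein. Among 5 nuclear long noncoding RNAs 0 passed, and Neat1 had an unadjusted p of 0.0321 (log2 fold change -0.63, standard error 0.23). Meg3 (0.44) and Kcnq1ot1 (-0.16) overlapped between genotypes.

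**Figure D4:**
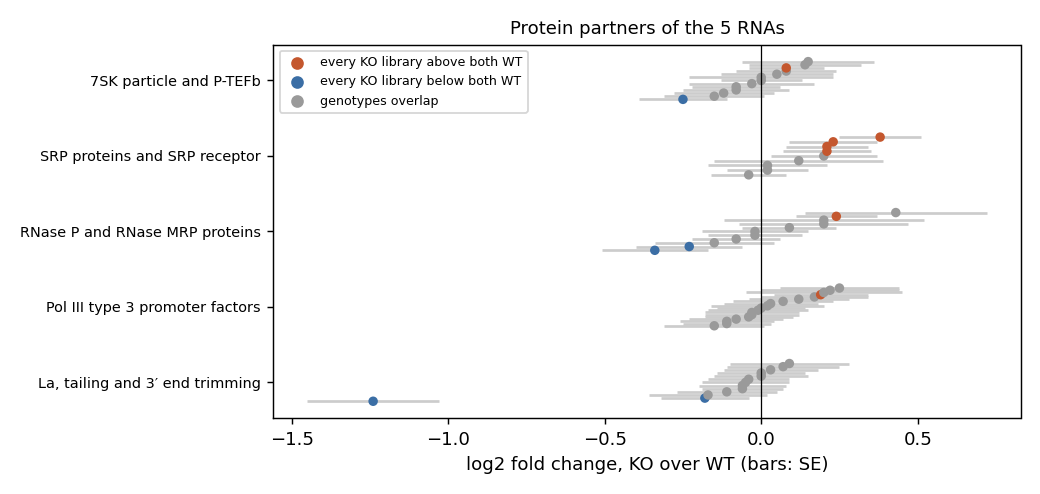
Log2 fold change of KO over WT (x axis, bars give the standard error) for the tested genes of 5 lists (y axis), coloured by whether every KO library lay above or below both WT libraries. The isolated point at -1.24 is Dis3l2, and all other genes drawn lie between -0.34 and 0.43.

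The values of the members under each way of processing show how far single libraries carried them. For Rpph1 and Rn7s2 the log2 fold change stayed above 0 in all fits run, from 1.19 to 3.04 and from 0.31 to 0.93. For Rn7sk it ran from -0.01 to 1.28. Leaving out KO replicate 3 raised all 3, and leaving out KO replicate 1 or KO replicate 2 lowered all 3. In a fit with the replicate number as a block, which drops KO replicate 3, limma called Rn7s2 and Rpph1 higher among 2.28% of genes so called. No label says that the numbers pair libraries.

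**Figure D5:**
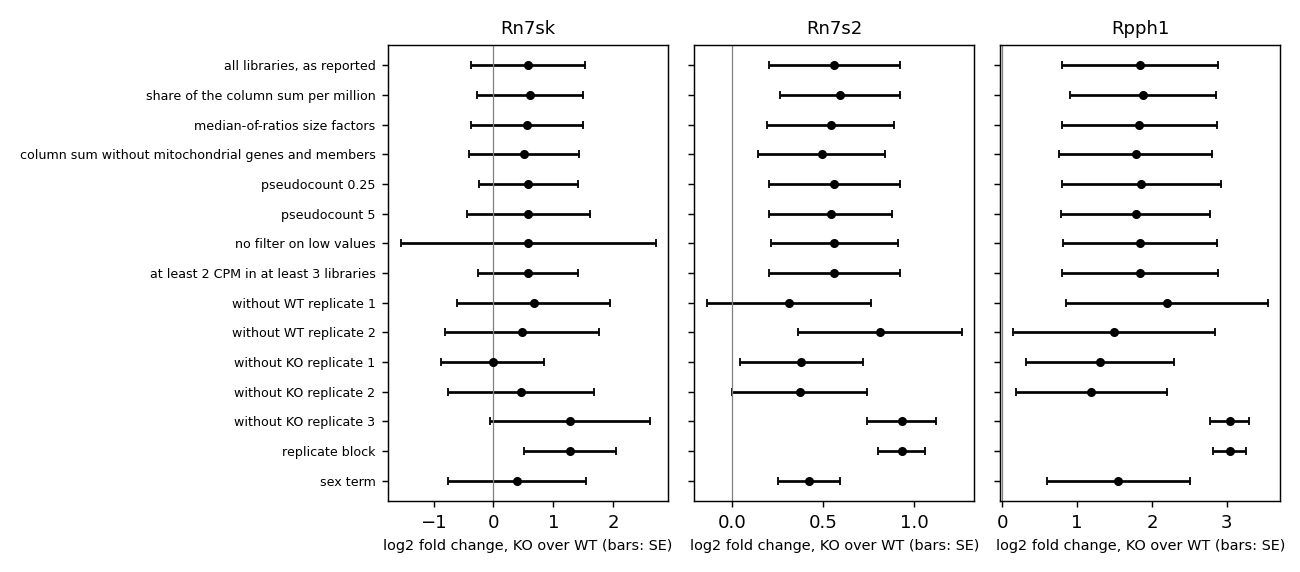
Log2 fold change of KO over WT with its standard error (x axis) for Rn7sk, Rn7s2 and Rpph1 as reported and under each other way of processing (y axis). Changes of scaling, pseudocount and filter move the points by less than their standard error, whereas leaving out KO replicate 3 moves Rpph1 from 1.84 to 3.04.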

How the data were processed

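Total RNA of 2 WT and 3 KO libraries was sequenced with 50-base single-end reads from a stranded total RNA kit, per the labels. Tools listed in the submitters' processing notes are edgeR 3.20.1, featureCounts and HISAT2 2.1.0, with build mm10. The annotation release and the treatment of strand, of overlapping genes and of reads with several matches were not given in the sources used here. The authors deposited a signal per library with 2 decimals, namely CPM scaled to an effective library size, with their log2 fold change and log2 CPM, a likelihood ratio score, and their p-value and FDR. Depth came from the step size of low values: below 100 CPM, 100.0% fell no further than 0.0055 CPM from a whole read. A count test needs 95% of values up to 20 reads within 0.1 of a whole read. As 45.0% to 95.4% did, none was run, and limma 3.58.1 (R 4.3.3, trend option) was fitted to log2(CPM + 1) of 14884 genes with genotype as the 1 term. Benjamini-Hochberg adjustment ran over all of them, with a threshold of 0.05. This fit was tested on simulated data. Fold changes on this scale understate changes of low genes.

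All 5 members carry the same ID and version in GENCODE M21, which gave sequences, coordinates and spans. The members and lists were chosen with earlier results of these data known. Named from each list are the 3 genes with the smallest p and any that passed, and for each member the 3 most similar profiles. Other names were chosen after their values were seen. Some named items and sequences are not reported here. Alternatives were other scalings, pseudocounts and filters, each library left out, a replicate block and a sex term.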

Additional observations from a re-analysis of the deposited data

Results flagged for a closer look

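In 7SK and RNase P RNA the libraries of the 2 sexes, as read from Xist and Ddx3y, moved in opposite directions. The share of the column sum taken by Rn7sk was 3.39 and 1.85 times that of the female WT library in the female KO replicates 1 and 2, and 0.593 times that of the male WT library in the male KO replicate 3. For Rpph1 the same values were 9.45 and 11.6 in the female KO libraries and 0.591 in the male one. The difference between the sexes was not tested, and with 1 male library per genotype it cannot be told apart from a difference of KO replicate 3 from the other KO libraries.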

How the results depend on the processing

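Scalings, pseudocounts and filters left the members' directions and calls as reported, and single libraries did not. Leaving out each library in turn moved the log2 fold change of Rn7sk between -0.01 and 1.28, of Rn7s2 between 0.31 and 0.93 and of Rpph1 between 1.19 and 3.04, none of them passing. Shares ran between 1.19 and 2.50 times WT for Rn7sk, and between 1.20 and 2.51 for the 5 members together. Within male libraries they were 0.593 for Rn7sk, 0.591 for Rpph1 and 0.594 for all 5. The log2 ratio of Rn7sk to Rn7s2 ran from -0.40 without KO replicate 1 to 0.36, and was -0.34 without WT replicate 2.

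Against 1 gene as reported, limma called 0 with median-of-ratios factors, a pseudocount of 5, no filter or a sex term, and from 0 to 8 without single libraries. With a replicate block it called 390 (339 higher, 2.28% of genes, and 51 lower). That fit drops KO replicate 3, which shares its number with no WT library, and called Rn7s2 (0.93, adjusted p = 0.0396, limma) and Rpph1 (3.04, adjusted p = 0.0116, limma). It rests on 1 residual degree of freedom. The numbers are not known to pair samples, although deviations of same-numbered libraries correlated at 0.414 and 0.537. The median of the other RNA polymerase III RNAs was 2.82 with a pseudocount of 5, 0.58 with no filter (6 genes), and 3.08 to 3.74 without single libraries. The 6 other lists moved by less than their members' median standard error. The planned count test was not run, and no alternative gave a value for Rmrp. With no filter Rn7s1 rested on 1 read.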
